A study of Mustela putorius furo with 9 samples.

Results

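The genes described here encode translation elongation factors and cytoplasmic poly(A)-binding proteins. They are EEF2, the kinase gene EEF2K, the genes EEF1B2, EEF1D and EEF1G, and the genes PABPC1 and PABPC4. Their rows were taken from the deposited expression table by gene symbol, which gave 7 of its 28494 genes. The rule itself used no expression value, but the genes were chosen with earlier results of these data known. All 7 passed the filter on low values.

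Elongation factors move the ribosome along the mRNA. The eEF1A protein brings each aminoacyl-tRNA to the ribosome as a complex with GTP, and the eEF1B complex, built from the products of EEF1B2, EEF1D and EEF1G, reloads eEF1A with GTP. The EEF2 protein, a GTPase that carries the modified amino acid diphthamide, then translocates the ribosome, and EEF2K switches it off by phosphorylation. PABPC1 coats the poly(A) tail and contacts the initiation factor eIF4G, and PABPC4 is its close relative. The mRNAs of EEF2, the eEF1B subunits and PABPC1 begin with a terminal oligopyrimidine (TOP) tract, like those of ribosomal proteins, and their translation is controlled through mTOR and the RNA-binding protein LARP1.

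The study measured mRNA in cultured NBL-7 cells, which the labels call ferret lung epithelial cells, after exposure to airborne particulate matter. A mink lung line goes by the same name, and which animal these cells came from was not checked. There were 9 libraries, 3 in each group: Ep1, labelled untreated, Ep2, labelled as given 250 µg/mL, and PBS1, labelled as given 500 µg/mL. A group titled PBS, normally a vehicle buffer, is thus labelled with the higher dose, and that conflict was not resolved, so all 3 pairs of groups were compared. The exposure time is not given in the labels. The columns of the PBS1 group, named PBS1, PBS2 and PBS3, could not be matched to single samples and are called here by column name. Whether the libraries of 1 group were grown as separate cultures is not stated, and the p-values below cover the spread between libraries, possibly only technical. In a bulk culture, fewer cells of a type and less RNA per cell cannot be told apart.

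The libraries held 12469849 to 13533480 fragments, worked out from the deposited FPKM (a fragment count divided by gene length and library depth). On the first principal component, 57.0% of the variance, library Ep1_1 lay at -14.7, close to the PBS1 libraries at -19.3 to -15.2, whereas Ep1_2 and Ep1_3 lay at -0.401 and 2.87 and the Ep2 libraries at 15.3 to 24.6. Values without Ep1_1 are therefore given where they change a call. Of 6 epithelial markers, KRT8 and KRT19 measured between 131 and 276 FPKM, EPCAM was listed at 0 throughout, and KRT18, CDH1 and CLDN4 stayed at or below 0.135 FPKM. The 6 summed to 321 to 419 FPKM in Ep1, 297 to 315 FPKM in Ep2 and 412 to 459 FPKM in PBS1. Of 5 lung markers, NKX2-1 reached 8.05 to 15.5 FPKM and SFTPC was listed at 0, and the 5 summed to 12.9 to 16.2 FPKM in Ep1, 8.11 to 11.4 FPKM in Ep2 and 14.8 to 15.6 FPKM in PBS1. Both sums were thus lowest in Ep2, as was EEF2, and their part in the results below was not tested. The 4 endothelial markers, nearly all TEK, summed to 12.0 to 12.9 FPKM in Ep1, 13.9 to 16.0 FPKM in Ep2 and 15.6 to 17.7 FPKM in PBS1, with CDH5 at 0. The 5 fibroblast markers summed to 1.97 to 3.71 FPKM with DCN and LUM at 0, and the 4 leukocyte markers to 1.46 to 2.77 FPKM with CD14 at 0.

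FPKM is scaled to gene length, so levels of different genes can be set side by side. PABPC1 averaged 1458 FPKM over the 9 libraries, EEF2 1271 FPKM and EEF1G 1039 FPKM. EEF1B2 averaged 461 FPKM, PABPC4 143 FPKM, EEF1D 93.9 FPKM and EEF2K 13.6 FPKM. Ordered by level in each library, EEF2 and PABPC1 ranked between 11 and 40 among all genes, and EEF2K between 5225 and 5921. Together the 7 genes took 0.991% to 1.01% of the fragments in Ep1 libraries, 0.933% to 0.975% in Ep2 libraries and 0.984% to 0.993% in PBS1 libraries. The highest library exceeded the lowest 1.48-fold for EEF1D, 1.37-fold for PABPC1, 1.35-fold for EEF2, 1.30-fold for EEF1G, 1.22-fold for EEF2K, 1.21-fold for PABPC4 and 1.14-fold for EEF1B2. The fewest fragments lay on EEF2K, 752 to 945 per library, which alone gives a counting error of 3.25% to 3.65%; for EEF2 and PABPC1 this error was at most 0.538%. Such intervals cover counting error only. How reads shared with near-identical gene copies were counted is not given in the sources used here, so the absolute levels are uncertain. The only annotated overlap was between EEF2 and LOC106003682 on the opposite strand, which reached at most 0.170 FPKM.

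**Figure D1:**
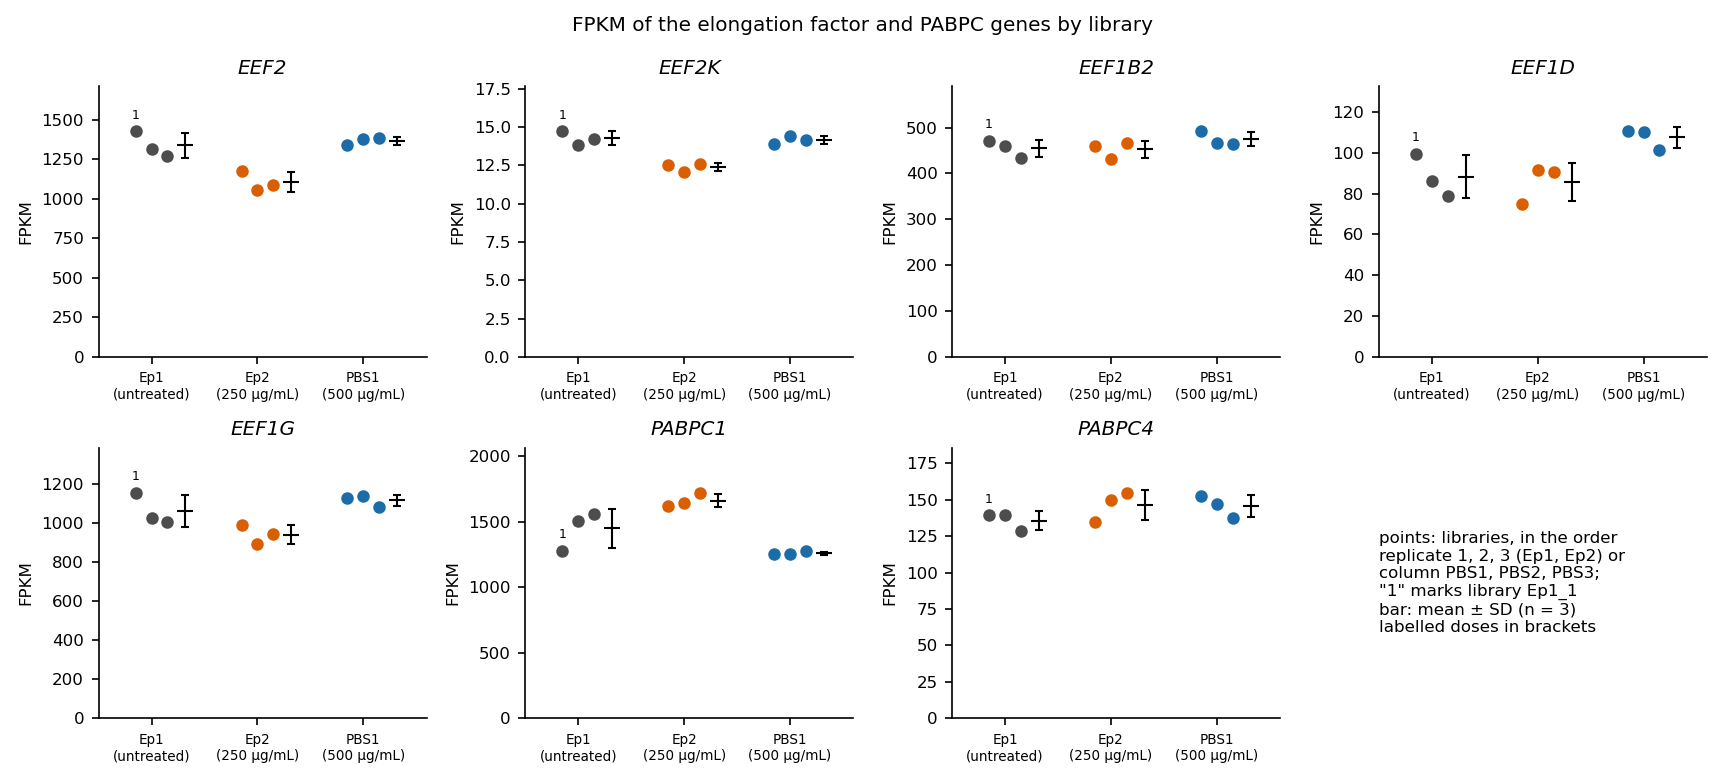
FPKM (linear axis from 0) of each gene in each library by group, with mean ± SD (n = 3) beside the points; "1" marks library Ep1_1. The 3 Ep2 libraries are the lowest of all 9 for EEF2, EEF1G and EEF2K and the highest for PABPC1, where Ep1_1 sits beside the PBS1 libraries.

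EEF2, the translocase, was lowest in the Ep2 group. It measured 1427, 1317 and 1273 FPKM in Ep1_1, Ep1_2 and Ep1_3. In Ep2_1, Ep2_2 and Ep2_3 it measured 1173, 1057 and 1086 FPKM. In columns PBS1, PBS2 and PBS3 it measured 1339, 1377 and 1387 FPKM. Every Ep2 library lay below every library of the other groups, while the Ep1 and PBS1 values overlapped. EEF2 fell by 17.4% in the means of Ep2 against Ep1, a difference of -0.28 on the log2(FPKM + 1) scale (SE 0.06, limma with Benjamini-Hochberg adjustment over 11840 tested genes, adjusted p = 0.00942). PBS1 minus Ep2 gave 0.31 (SE 0.06, adjusted p = 0.00202), and PBS1 minus Ep1 gave 0.03 (95% interval -0.10 to 0.16, adjusted p = 0.774). Differences on this scale understate those of genes with low values. Both calls held under every alternative run, with adjusted p between 0.000868 and 0.0476 over 23 alternatives for Ep2 minus Ep1. For PBS1 minus Ep2 it was 8.85e-05 to 0.0164 over 22 alternatives.

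EEF2K, the kinase that inactivates EEF2, measured 14.7, 13.8 and 14.2 FPKM in the Ep1 libraries, in replicate order. It measured 12.5, 12.1 and 12.6 FPKM in the Ep2 libraries and 13.9, 14.4 and 14.2 FPKM in columns PBS1 to PBS3. The Ep2 libraries again lay below all others. EEF2K was lower in Ep2 than in Ep1 (difference -0.19, SE 0.06, adjusted p = 0.0342), and PBS1 minus Ep2 gave 0.18 (SE 0.06, adjusted p = 0.0232). PBS1 minus Ep1 gave -0.01 (95% interval -0.13 to 0.12). The first call was lost in 10 of 23 alternatives, over which adjusted p ran from 0.0244 to 0.111. These included leaving out Ep1_1, Ep1_2, Ep1_3, Ep2_2, Ep2_3, column PBS1 or column PBS2 (adjusted p = 0.0820, 0.0521, 0.0561, 0.111, 0.0839, 0.0505 and 0.0546), fitting only the 6 libraries compared (0.0772) and leaving out both Ep1_1 and Ep2_1 (0.0824). The second was lost in 4 of 22, without Ep2_2, Ep2_3, column PBS2 or column PBS3 (adjusted p = 0.0786, 0.0505, 0.0814 and 0.0525, over a range from 0.00789).

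Of the eEF1B subunit genes, EEF1G and EEF1D differed between PBS1 and Ep2, and EEF1B2 passed in no comparison. EEF1G, which holds the complex together, measured 1156, 1025 and 1003 FPKM in the Ep1 libraries. It measured 990, 892 and 942 FPKM in the Ep2 libraries and 1127, 1138 and 1083 FPKM in columns PBS1 to PBS3. All Ep2 values lay below those of both other groups. PBS1 minus Ep2 gave 0.25 (SE 0.06, adjusted p = 0.00926), a call kept in all 22 alternatives. For Ep2 minus Ep1 the difference of -0.17 (SE 0.06) did not pass (adjusted p = 0.0677), although it passed without Ep1_3 (0.0469), without Ep2_1 (0.0434) and in 4 other alternatives of 23, over a range of 0.0271 to 0.210. Without Ep1_1 the difference was -0.11 (adjusted p = 0.188). PBS1 minus Ep1 gave 0.08 (95% interval -0.07 to 0.22).

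EEF1D, the nucleotide exchange subunit that is found in multicellular animals, measured 99.6, 86.3 and 79.0 FPKM in the Ep1 libraries. It measured 74.9, 91.5 and 90.7 FPKM in the Ep2 libraries and 110.7, 110.5 and 101.6 FPKM in columns PBS1 to PBS3. The PBS1 libraries lay above all 6 others, while Ep1 and Ep2 overlapped. EEF1D was higher in PBS1 than in Ep2 by 0.33 (SE 0.10, adjusted p = 0.0156). That call was lost without Ep2_1, column PBS1 or column PBS2 (adjusted p = 0.0514, 0.0508 and 0.0527) and with quantile normalization (0.0533), over a range from 0.00346 in 22 alternatives. PBS1 minus Ep1 gave 0.29 (SE 0.10) and did not pass (adjusted p = 0.131); without Ep1_1 it was 0.38 and passed (adjusted p = 0.0243, range over 22 alternatives 0.00553 to 0.409). Ep2 minus Ep1 gave -0.04 (95% interval -0.25 to 0.17), with a sign that turned in 4 of 23 alternatives, to as much as 0.14 without both Ep1_1 and Ep2_1.

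EEF1B2, the other exchange subunit, had the smallest range over the 9 libraries. It measured 471, 460 and 434 FPKM in the Ep1 libraries. It measured 461, 432 and 466 FPKM in the Ep2 libraries and 492, 467 and 464 FPKM in columns PBS1 to PBS3. All groups overlapped, and no comparison passed in any alternative run. The differences were -0.005 for Ep2 minus Ep1 (95% interval -0.12 to 0.11), 0.06 for PBS1 minus Ep1 (-0.06 to 0.18) and 0.07 for PBS1 minus Ep2 (-0.05 to 0.19). The sign of the first turned in 6 of 23 alternatives.

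PABPC1, the main cytoplasmic poly(A)-binding protein gene, was highest in the Ep2 group, where EEF2 was lowest. It measured 1280, 1509 and 1562 FPKM in Ep1_1, Ep1_2 and Ep1_3. In Ep2_1, Ep2_2 and Ep2_3 it measured 1625, 1641 and 1723 FPKM. In columns PBS1, PBS2 and PBS3 it measured 1254, 1254 and 1275 FPKM. The 3 groups did not overlap, with Ep2 on top and PBS1 at the bottom, but Ep1_1 was just above the PBS1 libraries and well below Ep1_2 and Ep1_3. PABPC1 was lower in PBS1 than in Ep2 (difference -0.40, SE 0.07, adjusted p = 0.00135). Its mean fell by 24.2%, and the call passed in all 22 alternatives at adjusted p between 4.53e-05 and 0.0120. The absolute difference was larger than that of 76.8% of the tested genes. For the other genes called in PBS1 minus Ep2 that share was 62.9% (EEF2), 66.5% (EEF1D), 51.7% (EEF1G) and 39.1% (EEF2K). For PABPC1, Ep2 minus Ep1 gave 0.20 (SE 0.07) and missed the threshold (adjusted p = 0.0533). It passed without Ep1_3 (0.26, adjusted p = 0.0262) and in 3 other alternatives of 23, over a range of 0.0132 to 0.178. Without Ep1_1 the difference was 0.11 (adjusted p = 0.115). PBS1 minus Ep1 gave -0.20 (SE 0.07, adjusted p = 0.147); without Ep1_1 it was -0.28 and passed (adjusted p = 0.00680, range over 22 alternatives 0.00381 to 0.448).

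PABPC4 measured 139, 140 and 128 FPKM in the Ep1 libraries. It measured 135, 150 and 155 FPKM in the Ep2 libraries and 153, 147 and 138 FPKM in columns PBS1 to PBS3. The groups overlapped in every pair. The differences were 0.11 for Ep2 minus Ep1 (95% interval -0.04 to 0.26), 0.10 for PBS1 minus Ep1 (-0.05 to 0.25) and -0.01 for PBS1 minus Ep2 (-0.15 to 0.14), and none passed in any alternative run.

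Counted over the 7 genes, Ep2 minus Ep1 called 2 lower (EEF2 and EEF2K) and 0 higher, where 14.0% of tested genes were called lower, 13.4% higher and 27.4% in either direction. At an unadjusted limma p under 0.05, 3 were lower and 1 higher, where 4893 of the 11840 tested genes passed. Limma with voom on the recovered fragments called 4 of the 7, and no alternative called more than 4485 of all genes. The count of adjusted calls was 1 (EEF2) without Ep1_1, Ep1_2, Ep2_2, Ep2_3, column PBS1 or column PBS2. Values of the groups did not overlap for 4 genes (EEF2, EEF2K and EEF1G lower, PABPC1 higher), as for 42.8% of tested genes, 22.0% higher and 20.8% lower. PBS1 minus Ep1 called 0 of 7, against 0.144% of all tested genes (0.0760% higher and 0.0676% lower). Of the 7, 2 (EEF1D and PABPC1) had an unadjusted limma p under 0.05, as did 2648 of the 11840 tested genes. Voom called 0 of the 7 and 547 of all genes. Without Ep1_1, 2 of the 7 were called, beside 1887 of 11779 tested genes. The same 2 genes did not overlap between these groups, EEF1D higher and PABPC1 lower, which was so for 23.7% of tested genes, 12.8% higher and 10.9% lower. PBS1 minus Ep2 called 4 higher (EEF2, EEF2K, EEF1D and EEF1G) and 1 lower (PABPC1), against 25.4% higher, 24.2% lower and 49.6% in either direction among tested genes. Those 5 also did not overlap, as for 60.3% of tested genes, 30.1% in each direction. Without column PBS2 the count of adjusted calls was 3, and that of all genes was 4498, beside 5875 with all libraries. The median difference of the 7 genes was -0.04, 0.06 and 0.18 in the 3 comparisons, beside -0.004, 0.003 and 0.002 over all tested genes. These comparisons share libraries, so that their values are not independent of each other. The number of all genes called for Ep2 minus Ep1, 3240, dropped to 1839 when Ep1_1 was left out, to 1499 when Ep2_2 was and to 1258 when Ep2_3 was. For PBS1 minus Ep1 it was 17, and leaving out 1 library moved it to between 0 (without Ep1_2) and 1887 (without Ep1_1).

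**Figure D2:**
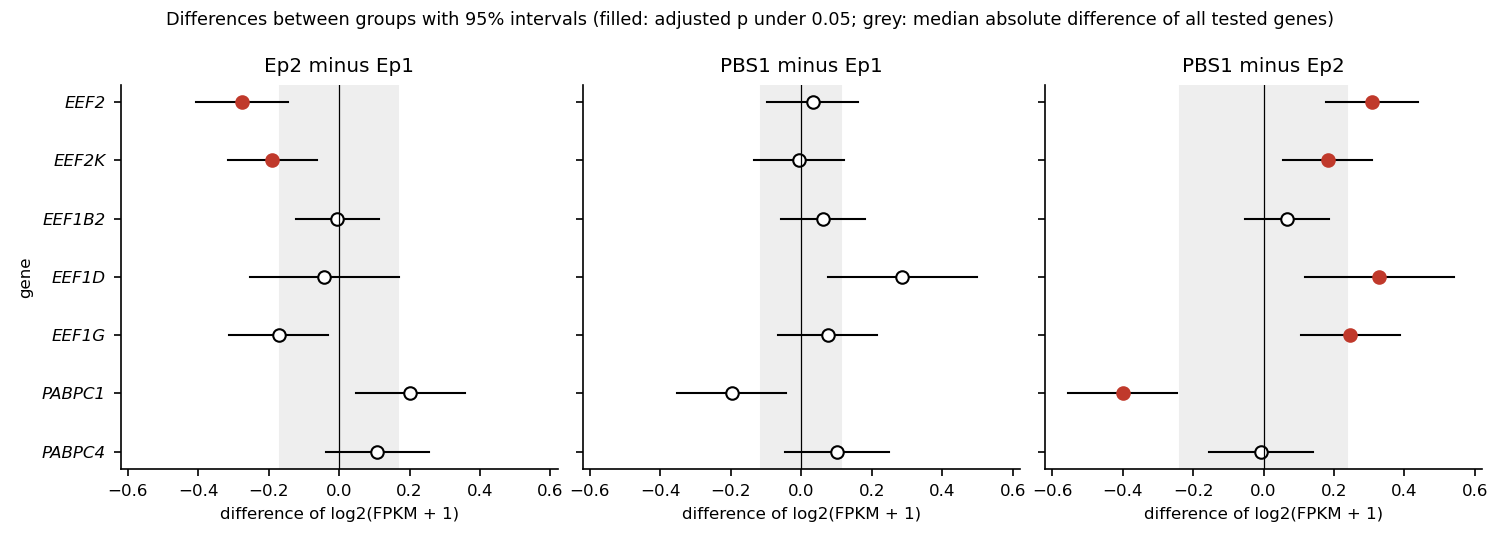
Difference of log2(FPKM + 1) for each gene in the 3 comparisons, with 95% intervals from limma; filled points have an adjusted p under 0.05, and the grey band spans plus and minus the median absolute difference of all tested genes (0.17, 0.11 and 0.24). EEF2 and PABPC1 leave the band in opposite directions in the outer panels, and no gene is filled for PBS1 minus Ep1.

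A ratio of genes within a library does not depend on how that library was scaled. PABPC1 was 9.20, 10.8 and 12.2 times PABPC4 in the Ep1 libraries, 12.0, 10.9 and 11.1 times in the Ep2 libraries and 8.21, 8.54 and 9.26 times in columns PBS1 to PBS3. The PBS1 ratios lay below all Ep2 ratios and overlapped with Ep1 through Ep1_1. EEF1G was 2.45, 2.23 and 2.31 times EEF1B2 in the Ep1 libraries, 2.15, 2.06 and 2.02 times in the Ep2 libraries and 2.29, 2.44 and 2.33 times in columns PBS1 to PBS3. Here the Ep2 ratios lay below all others. EEF1D averaged 0.194 ± 0.0156 of EEF1B2 in Ep1, 0.190 ± 0.0250 in Ep2 and 0.227 ± 0.00894 in PBS1 (SD, n = 3 each). EEF2K averaged 0.0107 ± 0.000450 of EEF2 in Ep1, 0.0112 ± 0.000475 in Ep2 and 0.0104 ± 0.000131 in PBS1, with Ep1 and Ep2 overlapping. An exact permutation test of the 3 groups over 1680 assignments gave p = 0.0464 for PABPC1 to PABPC4, 0.0286 for EEF1G to EEF1B2, 0.05 for EEF2K to EEF2 and 0.114 for EEF1D to EEF1B2. None passed after Benjamini-Hochberg adjustment over the 4 ratios (0.0667, 0.0667, 0.0667 and 0.114), where the smallest p the design allows is 0.00357. Without Ep1_3, PABPC1 to PABPC4 passed (adjusted exact permutation p = 0.0429, range over 10 alternatives to 0.186).

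**Figure D3:**
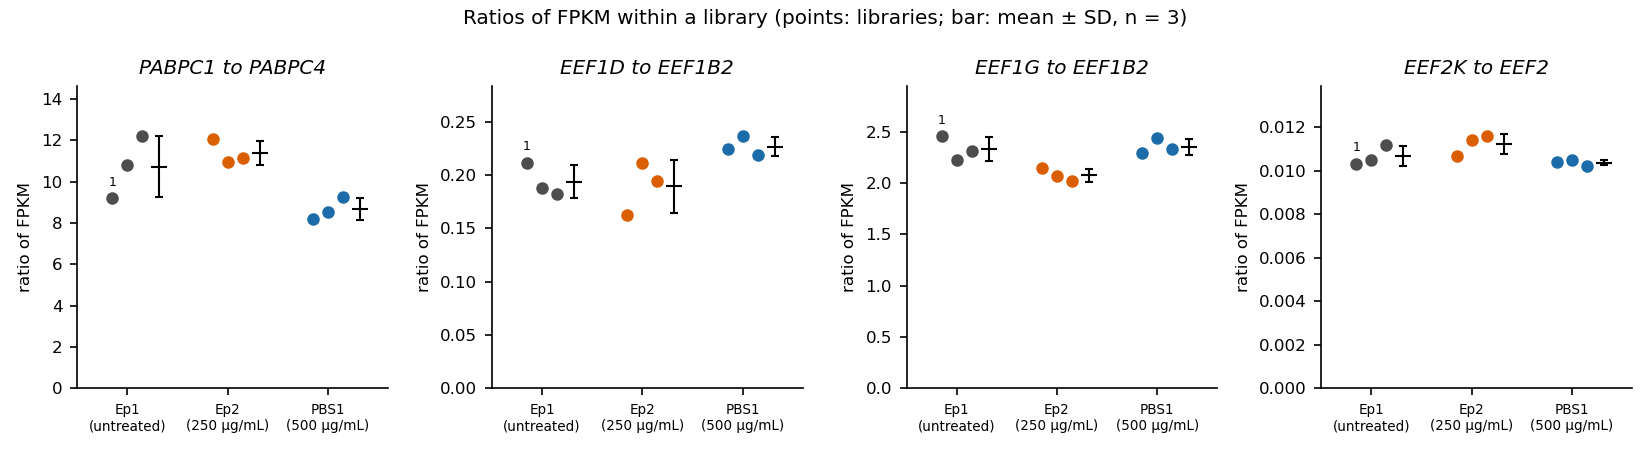
Ratio of FPKM within each library (linear axes from 0) for 4 gene pairs by group, with mean ± SD (n = 3) beside the points; "1" marks library Ep1_1. The Ep2 libraries are lowest for EEF1G to EEF1B2, at 2.02 to 2.15, and the PBS1 libraries are highest for EEF1D to EEF1B2, at 0.219 to 0.236.

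The most abundant of the 7 genes changed place between groups. PABPC1 was 0.897, 1.15 and 1.23 times EEF2 in Ep1_1, Ep1_2 and Ep1_3, 1.38, 1.55 and 1.59 times in the Ep2 libraries and 0.936, 0.910 and 0.919 times in columns PBS1 to PBS3. PABPC1 thus exceeded EEF2 in all Ep2 libraries and in Ep1_2 and Ep1_3, and lay below it in Ep1_1 and the PBS1 libraries. This pair was chosen after its values were seen, and its ratio was not tested. Among all genes, EEF2 ranked 19 to 26 by level in Ep1 libraries, 34 to 40 in Ep2 libraries and 19 to 22 in PBS1 libraries. PABPC1 ranked 12 to 27, 11 to 13 and 26 to 27 in the same groups.

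Other genes of elongation, poly(A) binding and termination were taken from 8 lists. These were written from textbook knowledge, but with earlier results of these data known. Their counts for PBS1 minus Ep2 stand against 25.4% of all tested genes called higher, 24.2% lower and 49.6% in either direction, with a median of 0.002. In PBS1 minus Ep2, 5 of 7 genes listed as other cytosolic elongation factors were higher and 1 lower, with a median difference of 0.28. The 7 include VARS, a valyl-tRNA synthetase gene that is among the 5, and EEF1E1, a synthetase complex gene. Neither encodes an elongation factor. EEF1A1, which encodes the carrier of aminoacyl-tRNA, averaged 503 ± 99.1 FPKM in PBS1 and 368 ± 28.1 FPKM in Ep2 (SD, n = 3 each), a difference of 0.43 (SE 0.12, adjusted p = 0.0106). Its PBS1 values ranged from 441 to 617 FPKM, the highest in column PBS2, and without that column the difference was 0.28 (adjusted p = 0.0231, range over 22 alternatives 0.00148 to 0.0411). EIF5A2, a paralog of the elongation factor EIF5A, went the other way, at 34.7 ± 1.78 FPKM in PBS1 and 46.2 ± 1.06 FPKM in Ep2 (-0.40, SE 0.07, adjusted p = 0.00113).

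Of 10 tested genes that modify EEF2, eEF1A or eIF5A, 1 was higher and 1 lower in PBS1 than in Ep2 (median 0.10). Among all tested genes 49.6% were called in either direction. At an unadjusted limma p under 0.05 the list had 3 higher and 2 lower, where 6712 of 11840 tested genes passed. DOHH, which completes the hypusine residue of eIF5A, averaged 16.0 ± 0.90 FPKM in PBS1 and 9.05 ± 1.26 FPKM in Ep2 (0.77, SE 0.10, adjusted p = 0.000481). DPH3, a gene of diphthamide synthesis on EEF2, averaged 10.1 ± 0.762 FPKM in PBS1 and 12.6 ± 0.424 FPKM in Ep2 (-0.30, SE 0.08, adjusted p = 0.0128), a call lost without column PBS2 (adjusted p = 0.0545, range over 22 alternatives from 0.00225). The list's count of 2 adjusted calls was 4 without Ep2_2.

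Of 13 genes upstream of EEF2K or in the dephosphorylation of EEF2, 3 were higher and 5 lower in PBS1 than in Ep2 (median -0.10). CALM3, a gene for the calmodulin that activates EEF2K, averaged 56.7 ± 8.67 FPKM in PBS1 and 39.5 ± 1.90 FPKM in Ep2 (0.50, SE 0.09, adjusted p = 0.00161). PRKAA1, a catalytic subunit of the AMP-activated kinase, which activates EEF2K, averaged 15.3 ± 0.278 FPKM in PBS1 and 22.0 ± 0.930 FPKM in Ep2 (-0.50, SE 0.09, adjusted p = 0.00205).

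Among 13 tested genes of other poly(A)-binding proteins and PABPC1 partners, 2 were higher and 4 lower in PBS1 than in Ep2 (median -0.16). LARP1, which represses TOP mRNAs when mTOR is inactive, averaged 86.9 ± 5.65 FPKM in PBS1 and 65.0 ± 5.30 FPKM in Ep2 (0.42, SE 0.07, adjusted p = 0.00132). PAIP1, a PABPC1-binding stimulator of translation, averaged 20.7 ± 0.978 FPKM in PBS1 and 27.7 ± 1.72 FPKM in Ep2 (-0.41, SE 0.07, adjusted p = 0.00105). Of 10 genes of the complexes that shorten poly(A) tails, 1 was higher and 5 lower (median -0.17), and the count of 6 was 3 without Ep2_3, column PBS1 or column PBS2. The higher one was the CCR4-NOT subunit gene CNOT3 (37.0 ± 1.45 FPKM in PBS1, 28.9 ± 1.97 FPKM in Ep2). PAN3, which recruits a deadenylase to PABPC1, averaged 17.3 ± 1.27 FPKM in PBS1 and 21.7 ± 0.516 FPKM in Ep2.

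The termination and recycling list had 4 of 6 genes lower and 0 higher in PBS1 than in Ep2, with a median of -0.25. Among all tested genes 24.2% were called lower and 25.4% higher. At an unadjusted limma p under 0.05 the list also had 4 lower and 0 higher, where 6712 of 11840 tested genes passed in either direction. Voom called 4 of the list, and the 22 alternatives, voom among them, called 4498 to 7006 of all genes. ABCE1, which splits the ribosome after termination, averaged 78.3 ± 1.78 FPKM in PBS1 and 104 ± 3.07 FPKM in Ep2 (-0.40, SE 0.05, adjusted p = 0.000494). HBS1L, a partner in the rescue of stalled ribosomes, differed by -0.32 (SE 0.07). Of 5 genes listed as mitochondrial elongation factors, 1 was higher and 2 lower (median -0.05). The lower ones were GFM2 at -0.36 (SE 0.09) and GUF1 at -0.28 (SE 0.07). GFM2 is named for elongation but acts in mitochondrial ribosome recycling.

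The last list held 11 tested TOP mRNA genes outside the ribosome, of which 2 were higher and 6 lower in PBS1 than in Ep2 (median -0.16). NAP1L1, a histone chaperone gene, averaged 111 ± 10.3 FPKM in PBS1 and 165 ± 3.98 FPKM in Ep2 (-0.58, SE 0.07, adjusted p = 0.000471). HNRNPA1, an RNA-binding splicing factor gene, averaged 397 ± 5.27 FPKM in PBS1 and 291 ± 15.7 FPKM in Ep2 (0.45, SE 0.06, adjusted p = 0.000624).

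In Ep2 minus Ep1, 13.4% of all tested genes were called higher, 14.0% lower and 27.4% in either direction. Against that, list genes called higher and lower were 2 and 2 of 7 for other elongation factors, 1 and 1 of 10 for modification, 4 and 2 of 13 upstream of EEF2K and 2 and 1 of 13 for poly(A) binding. They were 1 and 1 of 10 for deadenylation, 3 and 0 of 6 for termination, 2 and 0 of 5 for mitochondrial factors and 4 and 2 of 11 for TOP genes. At an unadjusted limma p under 0.05, 4893 of 11840 tested genes passed. In the same list order, the unadjusted counts higher and lower were 2 and 3, 1 and 1, 5 and 3, and 3 and 2. They were 3 and 2 for deadenylation, 4 and 0 for termination, 3 and 0 for mitochondrial factors and 6 and 2 for TOP genes. Voom called 5, 2, 6, 4, 3, 4, 2 and 6 in that order. The 23 alternatives, voom among them, called 1258 to 4485 of all genes. The adjusted counts depend on single libraries. Without Ep2_3, the lists upstream of EEF2K and of mitochondrial factors had 0 calls each, the termination list 1 and the TOP list 2. Without Ep2_2 those 4 lists had 1, 1, 1 and 2 calls, the mitochondrial list had 0 without Ep1_1 or Ep1_3 and 1 without Ep1_2, Ep2_1 or column PBS1, and the TOP list had 3 without Ep1_2. The list of other elongation factors had 2 calls without Ep1_1 and 1 without Ep2_2 or Ep2_3, and the modification and deadenylation lists had 1 each without Ep2_2 or Ep2_3. For PBS1 minus Ep1 limma called 0 genes in each of the 8 lists. At an unadjusted limma p under 0.05 the lists had 0 to 3 genes each, where 2648 of 11840 tested genes passed. Voom called 0 to 2 each and 547 of all genes. Without Ep1_1, limma called 0 to 4 each and 1887 of all genes. Without column PBS3 the poly(A)-binding list had 1 call.

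**Figure D4:**
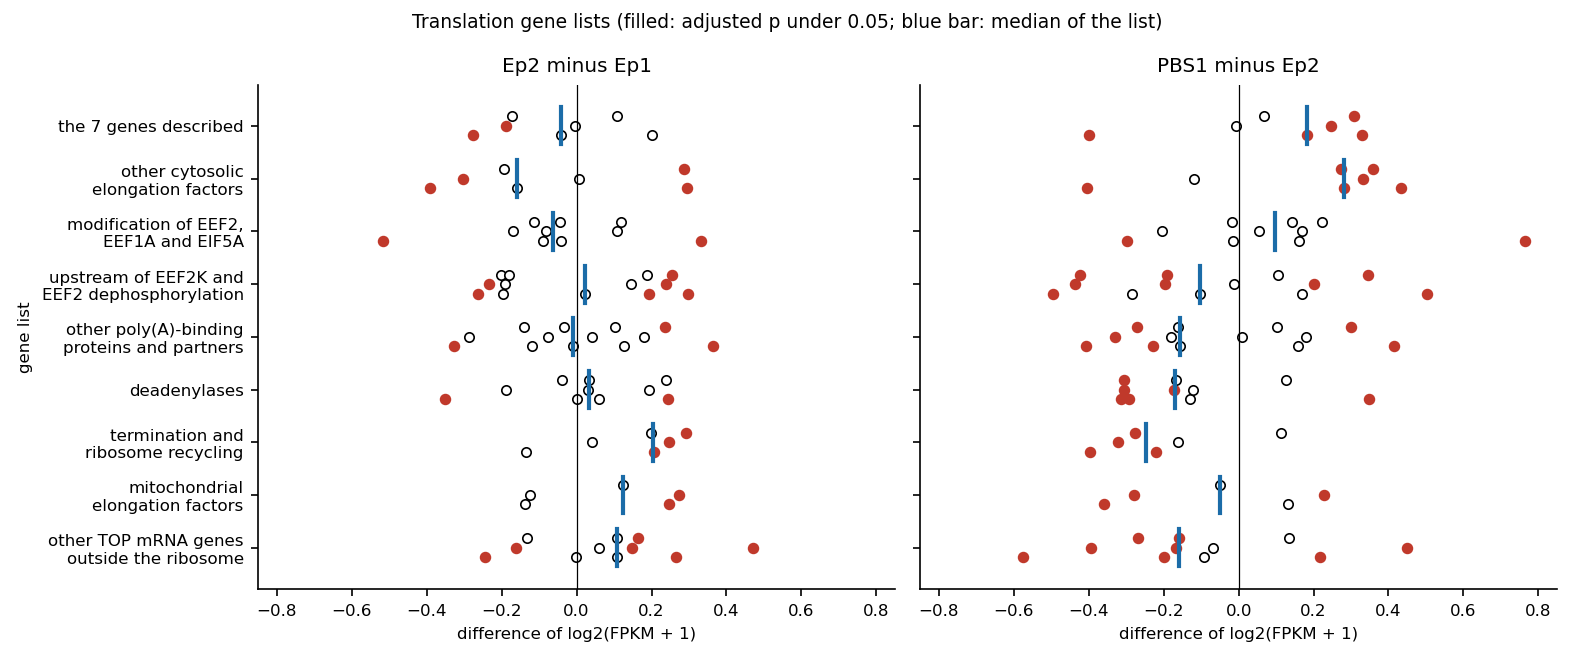
Difference of log2(FPKM + 1) for each tested gene of the 7 genes described and of 8 other translation lists, for Ep2 minus Ep1 and PBS1 minus Ep2; filled points have an adjusted p under 0.05 and the blue bar is the list's median. In PBS1 minus Ep2 the medians run from -0.25 for termination to 0.28 for other cytosolic elongation factors.

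Genes with a pattern like that of EEF2 or PABPC1 were ranked by Pearson's r of log2(FPKM + 1) over the 9 libraries, which fall into groups, among 10389 other tested genes with a symbol. The nearest to EEF2 were RPS7-2, a ribosomal protein gene row (r = 0.995), GNB2, a G protein beta subunit gene (0.993), and ATP5G2, an ATP synthase subunit gene (0.992). RPS7-2 averaged 936 FPKM in Ep1, 507 FPKM in Ep2 and 987 FPKM in PBS1, a wider range than that of EEF2. Nearest to PABPC1 were IL6ST, which encodes the shared receptor chain of interleukin 6 cytokines (0.998), CASC5, a kinetochore gene (0.992), and SEMA3D, a secreted semaphorin gene (0.991). IL6ST averaged 25.2, 29.7 and 21.6 FPKM in Ep1, Ep2 and PBS1. Such values are common in these libraries: r was above 0.9 for 930 genes with EEF2 and for 997 genes with PABPC1.

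**Figure D5:**
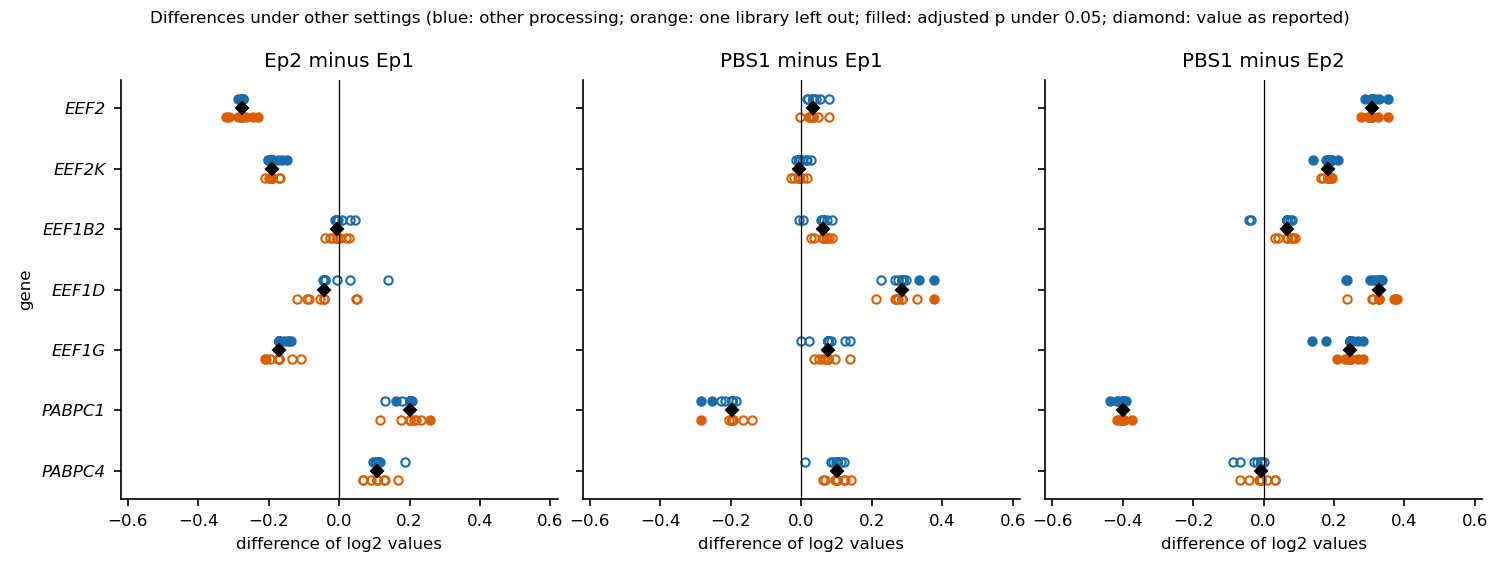
Difference of log2 values for each gene in the 3 comparisons as reported (diamonds), under other processing (blue) and with 1 library left out (orange); filled circles have an adjusted p under 0.05. EEF2, EEF1G and PABPC1 stay on 1 side of 0 and filled throughout PBS1 minus Ep2, between 0.28 and 0.35, 0.14 and 0.28, and -0.44 and -0.37.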

How the data were processed

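The authors deposited 1 table of FPKM, per the file headers, with a column for each library and the gene length. The submitters' processing notes name Bowtie 0.12.2 and the mouse build mm8, but the gene rows are ferret, so positions are left out. No source used here gives the counting tool, strand setting or annotation release. Depth was recovered by multiplying FPKM by length: 100% of values came out as whole fragments, within 0.02.

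Testing was by limma 3.58.1 (R 4.3.3) on log2(FPKM + 1), for genes reaching 1 FPKM in 3 or more libraries. The model had group means without a replicate term and a variance trend on intensity. P-values were Benjamini-Hochberg adjusted, with calls at 0.05. The code was tested on simulated data. Ratios were tested by exact permutation (Python 3.11.15), adjusted over 4.

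The genes and lists were chosen with earlier results of these data known. Named list genes were up to 2 called genes per list, with the largest absolute difference for PBS1 minus Ep2. The 3 genes nearest in pattern to EEF2 and to PABPC1 were also named. Alternatives were other pseudocounts, filters, normalizations, weights, voom on recovered fragments and subsets of libraries.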

Additional observations from a re-analysis of the deposited data

How the results depend on the processing

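With 3 libraries per group, single libraries decided many calls. For PBS1 minus Ep1 the number of genes called (17 as reported) was 0 with no filter, 79 at a minimum of 5 FPKM, 11 without the intensity trend, 3593 with sample weights, 547 with voom, 38 after removal of the length trend and 2294 without both Ep1_1 and Ep2_1, and 0 to 1887 with 1 library left out. Of the 7 genes described, 2 were called there with sample weights and 2 without both libraries, and 0 to 2 with 1 library left out. For Ep2 minus Ep1, 4 of the 7 were called with sample weights and 4 with voom, 1 with only the 6 libraries of the pair and 1 without both Ep1_1 and Ep2_1, and 1 to 3 with 1 library left out, over which 1258 to 3417 of all genes were called. No alternative for Ep2 minus Ep1 called more than 4485 of all genes. For PBS1 minus Ep2, 3 to 5 of the 7 were called with 1 library left out, over which 4498 to 6237 of all genes were called. The F of PABPC1 to PABPC4 ran from 3.83 to 17.8 over the libraries left out, and was 10.7 without Ep1_3. The cause was not tested.

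Among the 7 genes, signs turned only for differences that were not called. For Ep2 minus Ep1, EEF1B2 was 0.046 with quantile normalization, 0.030 without the length trend and 0.0078 without both libraries, and -0.039 to 0.029 with 1 left out. EEF1D was 0.031 with sample weights and 0.14 without both, and -0.12 to 0.051 with 1 left out. For PBS1 minus Ep1, EEF1G was -0.00084 with quantile normalization and EEF1B2 -0.0062 without the length trend. EEF2K was 0.0031 with equal medians, 0.026 with sample weights, 0.013 without the length trend and 0.015 without both, and -0.028 to 0.015 with 1 left out, over which EEF2 ran from -0.0035 to 0.079. For PBS1 minus Ep2, EEF1B2 was -0.041 with quantile normalization and -0.036 without the length trend. PABPC4 was 0.0015 with equal medians and -0.065 to 0.033 with 1 left out.

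With the replicate number as a block for Ep2 minus Ep1, 2974 of all genes were called and 1 of the 7 genes. EEF2 kept its call and EEF2K did not pass (limma, adjusted p = 0.0779, range over the alternatives 0.0244 to 0.111). Deviations of same-numbered libraries correlated at 0.152, 0.0720 and 0.0647, and Ep1_2 correlated slightly more with Ep2_3 (0.0733), so the numbers were not taken as pairs. The PBS1 columns carry no replicate number from the labels, so no block was fitted there.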
